A study of Mus musculus with 13 samples.

Results

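The NRF2 antioxidant genes described here were 10 of the 36158 genes to which the deposited transcripts could be matched, chosen by name: Nfe2l2 and Keap1, which encode the sensor pair, and Nqo1, Gclc, Gclm, Txnrd1, Srxn1, Slc7a11, Gsr and Prdx1, which encode enzymes and a transporter known as NRF2 targets. Their RNA was measured in aortic endothelial cells (ECs) and in whole heart of mice lacking Hmox2, the gene of the constitutive heme oxygenase, and of wild-type littermates, all kept in room air. The groups were Hmox2+/+ ECs (3 libraries), Hmox2-/- ECs (3), Hmox2+/+ heart (4) and Hmox2-/- heart (3). Hmox2-/- is a deletion carried by every cell of the animal. EC RNA and heart RNA were isolated with different kits, the heart from frozen, powdered whole organ, so tissue and extraction cannot be told apart. The study describes the sequenced mice as young, and their sex was not given in the sources used here.

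NRF2 is a transcription factor that KEAP1, the substrate adaptor of a CUL3 ubiquitin ligase, marks for degradation. Oxidants and electrophiles modify cysteines of KEAP1, after which NRF2 accumulates, pairs with a small MAF protein and binds antioxidant response elements near its target genes. The targets make and recycle glutathione and thioredoxin, supply NADPH and detoxify quinones and peroxides. In endothelium and heart the pathway is known for its role in laminar flow and in oxidative injury. NRF2 is controlled largely through the stability of its protein, which RNA levels do not measure.

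The letters of the antioxidant response element core, TGACNNNGC, were searched on both strands in the RefSeq promoter windows (build GRCm38.p6, 250 bases before to 50 bases after each transcription start, coordinates of that build). Of 32851 windows, 12.4% held a match, and of the 27025 genes with a window, 14.0% had a match in at least 1. Windows were listed for 8 of the 10 genes, and 5 of these had a match. The stretches around the matches are shown because they are the only letters of this element found in the windows of these genes. Each is read 5′ to 3′ on the gene's strand with the match in capitals, and a match that reads GC first lies on the opposite strand.
Nfe2l2 (chr2:75704865-75704913, minus strand): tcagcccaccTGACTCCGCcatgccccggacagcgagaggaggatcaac
Srxn1 (chr2:152105542-152105570, plus strand): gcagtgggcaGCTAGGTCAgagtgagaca
Gclm (chr3:122245393-122245461, plus strand): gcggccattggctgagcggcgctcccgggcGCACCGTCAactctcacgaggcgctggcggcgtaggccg
Prdx1 (chr4:116685436-116685504, plus strand): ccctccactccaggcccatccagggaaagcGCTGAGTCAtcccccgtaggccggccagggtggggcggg
Txnrd1 (chr10:82859084-82859152, plus strand): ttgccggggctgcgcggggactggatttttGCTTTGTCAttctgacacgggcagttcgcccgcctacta
Counted from the transcription start, the first base of the match stood at position -240 in Nfe2l2, -134 in Gclm, -133 in Prdx1 and -92 in Txnrd1, and at position 29, inside the first exon, in Srxn1. Txnrd1 had 3 windows, and the match lay in the window of Txnrd1-201, its leading transcript in these libraries. The windows of Slc7a11, Nqo1 and Keap1 did not hold these letters. A match of these letters is a description of the window and not a binding site.

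Total estimated counts were between 26067147 and 31619776 per library except for Hmox2+/+ heart replicate 1, with 7268626. The labels do not say that libraries of a group came from separate animals, so p-values measure the spread between these libraries. Hmox2 itself was 68.7 ± 6.5 CPM (counts scaled to library size by the trimmed mean of M-values, TMM; mean ± SD) in Hmox2+/+ ECs and 13.5 ± 1.1 CPM in Hmox2-/- ECs (n = 3 each), and 39.8 ± 2.3 (n = 4) against 8.08 ± 0.72 (n = 3) in heart. The Hmox2 transcripts shared 65.0% of their 31-base words with other genes, chiefly Cdip1, whereas the 10 genes shared at most 9.94% (Prdx1, with processed pseudogenes). Gclm shared 9.65% of its words with other genes, and 7.47% with Ppia. Hmox2-/- EC replicates 2 and 3 stood apart: the Y-linked Ddx3y was at 1.03 and 0.92 CPM there and between 61.7 and 86.4 CPM in the other 4 EC libraries. In heart Ddx3y was between 61.6 and 86.5 CPM in Hmox2+/+ and between 37.0 and 50.9 CPM in Hmox2-/-. Without EC replicates 2 and 3 a single Hmox2-/- EC library is left. This imbalance therefore cannot be separated from genotype in ECs or in the differences between tissues. All 12 endothelial markers were detected in every EC library, with a summed level of 964 to 1849 TPM (transcript abundance scaled by transcript length and library total) in Hmox2+/+ and 2008 to 2203 TPM in Hmox2-/-. The same libraries also held adipocyte markers (5277 to 7795 TPM over both genotypes) and erythroid markers (3981 to 9630 TPM). In heart, all 10 cardiomyocyte markers were detected in every library, at 27890 to 36365 TPM in Hmox2+/+ and 44985 to 51287 TPM in Hmox2-/-. Mitochondrially encoded genes took 37.6% to 44.3% of the counts in Hmox2+/+ heart and 22.5% to 27.2% in Hmox2-/- heart. TPM of every other gene scales with this share, whereas the tests below used counts with the TMM scaling. The fall of Hmox2 was smaller in TPM, at 57.7 ± 5.6 against 25.0 ± 6.6 in ECs and 29.35 ± 3.85 against 17.2 ± 1.3 in heart. Its log2 fold change was -2.34 in ECs and -2.30 in heart from counts, and -1.16 and -1.09 with length-scaled TPM.

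In ECs, Gclm was higher and Gsr lower in Hmox2-/- than in Hmox2+/+, each with an adjusted p of at most 0.05 (edgeR quasi-likelihood test over 15303 genes), and the other 8 genes did not pass. Of all genes tested in ECs, 10.02% were called higher and 8.06% lower, so 1 of 10 in each direction was close to the background. In heart, Srxn1 and Prdx1 rose and Gsr fell, 6 genes did not pass, and Slc7a11 was too low to be tested. The background in heart was 17.2% called higher and 16.2% called lower of 13818 genes, against 2 and 1 of 9. Gsr fell in both tissues. None of the 10 genes moved by a log2 fold change of 1 or more with a passing test in either tissue. The median log2 fold change of the genes tested was 0.10 in ECs and 0.11 in heart, beside -0.02 and -0.01 over all genes tested. These are bulk samples, in which a change in the number of cells of a type and a change in RNA per cell cannot be told apart.

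**Figure D1:**
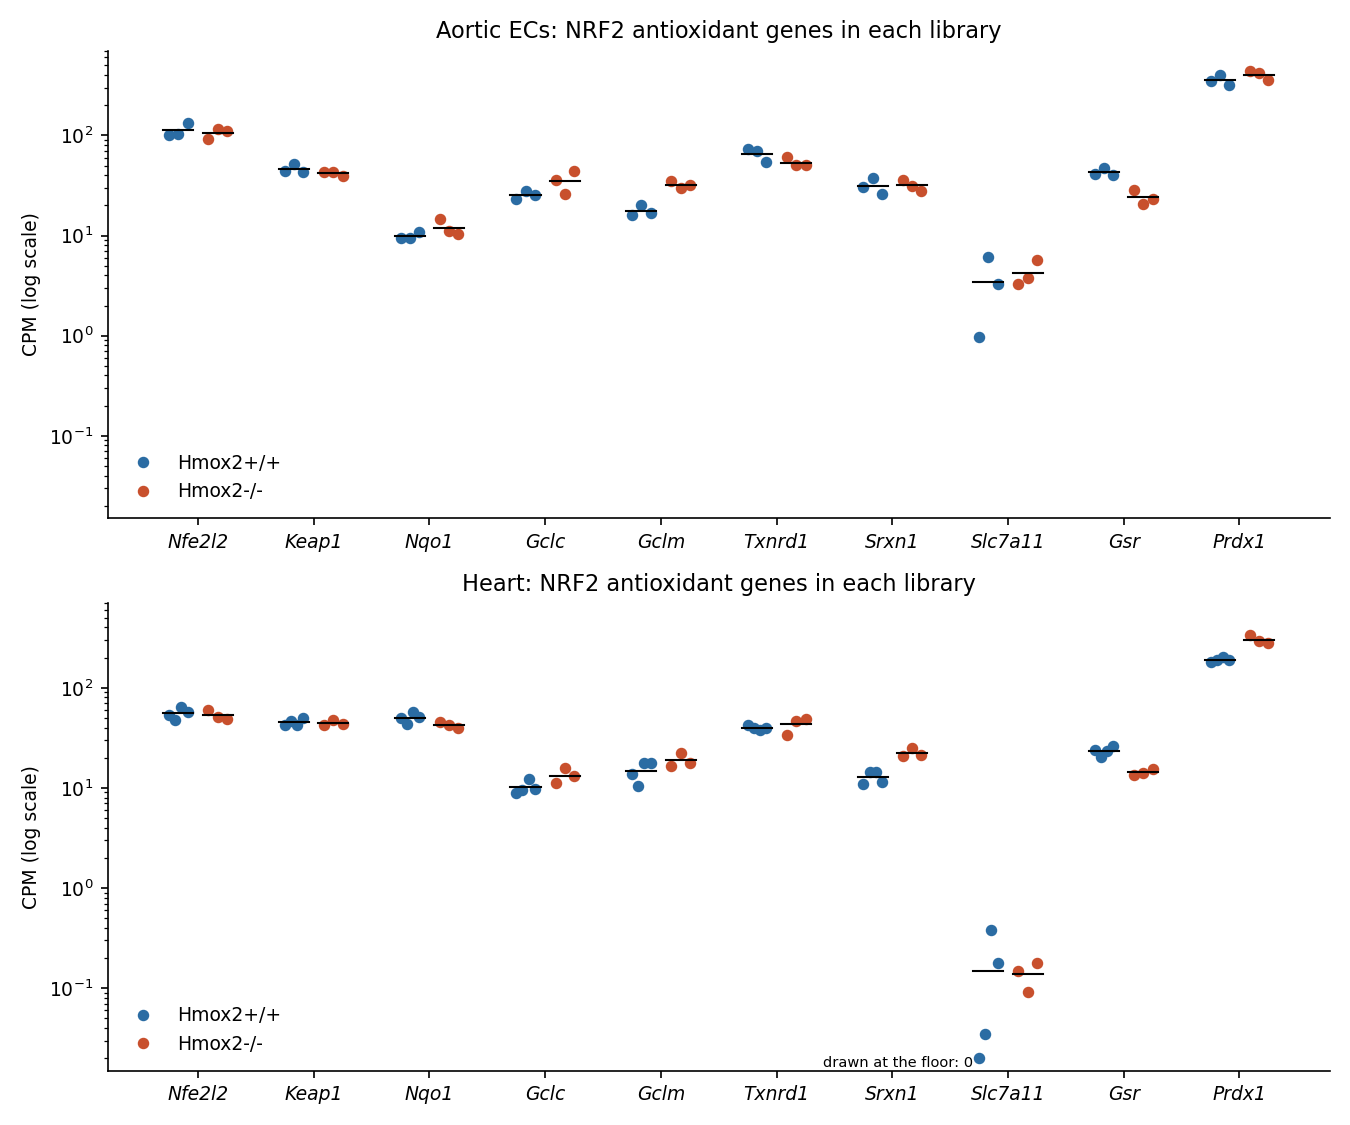
CPM of the 10 genes in every library (points, log axis; ECs above, heart below), with the mean of each genotype as a black bar. Gclm and Gsr in ECs, and Srxn1, Gsr and Prdx1 in heart, are the genes whose genotypes do not overlap. The Slc7a11 library with 0 counts in heart is drawn at the floor of the axis.

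The sensor pair showed no difference between genotypes that passed the test. Nfe2l2, which encodes NRF2 (chr2:75504739-75534985 in GRCm39, as are all gene coordinates below), was at 101, 104 and 134 CPM in Hmox2+/+ ECs and at 92.5, 117 and 109 CPM in Hmox2-/- ECs, and the genotypes overlapped. Its log2 fold change was -0.09 (SE 0.15, 95% interval -0.45 to 0.26, adjusted p = 0.70). In heart Nfe2l2 was at 53.4, 47.8, 64.0 and 57.1 CPM in Hmox2+/+ and at 59.4, 51.2 and 49.3 CPM in Hmox2-/-, again overlapping, with a log2 fold change of -0.06 (SE 0.12, 95% interval -0.32 to 0.19). Keap1 (chr9:21141026-21150679) lay within 39.1 to 52.2 CPM in all 6 EC libraries and within 42.8 to 49.4 CPM in all 7 heart libraries. Its log2 fold change was -0.14 (95% interval -0.42 to 0.13) in ECs and -0.02 (95% interval -0.23 to 0.19) in heart. For both genes the intervals leave out a doubling or a halving in either tissue.

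Of the glutathione genes, Gclm and Gsr moved in opposite directions in ECs. Slc7a11 (chr3:49846975-50398070) encodes the light chain of the cystine/glutamate exchanger, which brings in cystine for glutathione synthesis. It was at 0.96, 6.15 and 3.31 CPM in Hmox2+/+ ECs and at 3.29, 3.75 and 5.66 CPM in Hmox2-/- ECs, so that 1 wild-type library set the lower end. The log2 fold change of Slc7a11 was 0.28 with a 95% interval of -1.06 to 1.63, too wide to exclude a doubling. In heart Slc7a11 had between 0 and 10.4 estimated counts per library, which was below the filter on low counts.

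Glutamate-cysteine ligase, the rate-limiting enzyme of glutathione synthesis, consists of a catalytic subunit encoded by Gclc (chr9:77661797-77701770) and a modifier subunit encoded by Gclm (chr3:122039126-122065061). Gclm was at 16.1, 20.2 and 16.8 CPM in Hmox2+/+ ECs and at 35.3, 29.6 and 31.96 CPM in Hmox2-/- ECs. Every Hmox2-/- EC library lay above every wild-type one, as was the case, in either direction, for 40.7% of all genes tested in ECs and for 2 of these 10. The log2 fold change of Gclm was 0.87 (SE 0.13, 95% interval 0.56 to 1.17, adjusted p = 0.00786), a 1.82-fold rise.

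Gclm kept the higher value when Hmox2-/- EC replicates 2 and 3 were left out, with a log2 fold change of 1.00, but a single Hmox2-/- library then remained. Over 16 alternative analyses its value ran from 0.52 to 1.00. On the deposited TPM scale Gclm spanned 5.41 to 9.55 TPM in Hmox2+/+ ECs and 8.73 to 12.7 TPM in Hmox2-/- ECs, and the genotypes overlapped there. Gclc was at 23.1, 27.6 and 25.2 CPM in Hmox2+/+ ECs and at 35.7, 26.1 and 44.5 CPM in Hmox2-/- ECs. Replicate 2 of Hmox2-/- lay among the wild-type values, and the log2 fold change of 0.49 (SE 0.19) had an adjusted p of 0.118.

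In heart the ligase genes had positive values that did not pass. Gclm was at 13.7, 10.4, 17.6 and 17.8 CPM in Hmox2+/+ and at 16.4, 22.5 and 17.6 CPM in Hmox2-/- (log2 fold change 0.33, SE 0.19, adjusted p = 0.186). Gclc was at 8.92, 9.49, 12.3 and 9.70 CPM in Hmox2+/+ and at 11.2, 15.6 and 13.01 CPM in Hmox2-/- (log2 fold change 0.38, SE 0.15, adjusted p = 0.0756). For both genes the genotypes overlapped. With an offset that removes each library's trend with gene length and GC content, both passed in heart (Gclc 0.50, adjusted p = 0.0177; Gclm 0.58, adjusted p = 0.0245).

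Gsr (chr8:34142551-34188192) encodes glutathione reductase, which returns oxidised glutathione to its reduced form at the expense of NADPH, and was the member that fell in both tissues. It was at 41.0, 47.4 and 40.2 CPM in Hmox2+/+ ECs and at 28.8, 20.7 and 23.0 CPM in Hmox2-/- ECs, with no overlap. The log2 fold change of Gsr in ECs was -0.83 (SE 0.15, 95% interval -1.17 to -0.48, adjusted p = 0.0131), or 0.564 of the wild-type level. In heart Gsr was at 23.6, 20.3, 23.5 and 25.9 CPM in Hmox2+/+ and at 13.4, 14.2 and 15.4 CPM in Hmox2-/-, again with every Hmox2-/- library below every wild-type one. The heart log2 fold change was -0.70 (SE 0.11, 95% interval -0.95 to -0.45, adjusted p = 0.00156). The difference between the heart and EC effects of Gsr was 0.17 with a 95% interval of -0.23 to 0.56 (adjusted p = 0.534).

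The EC call of Gsr rested on the Hmox2-/- libraries. Without Hmox2-/- replicate 3 its log2 fold change was -0.78 with an adjusted p of 0.0646, and without replicates 2 and 3 together it was -0.57 with an adjusted p of 0.296. On the deposited TPM scale, which is not corrected for the mitochondrial share, Gsr spanned 7.84 to 15.5 TPM in Hmox2+/+ heart and 6.25 to 10.8 TPM in Hmox2-/- heart, so the heart genotypes overlapped there.

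Of the thioredoxin and peroxiredoxin genes, Srxn1 and Prdx1 rose in heart and did not pass in ECs. Prdx1 (chr4:116532123-116558398) encodes an abundant cytosolic peroxidase that reduces hydrogen peroxide with thioredoxin. It was at 180, 190, 202 and 188 CPM in Hmox2+/+ heart and at 333, 291 and 281 CPM in Hmox2-/- heart. Every Hmox2-/- heart lay above every wild-type heart. Counted in either direction, the genotypes did not overlap for 3 of the 9 genes tested in heart (Srxn1 and Prdx1 higher, Gsr lower) and for 40.4% of all genes tested. The log2 fold change of Prdx1 was 0.67 (SE 0.10, 95% interval 0.46 to 0.88, adjusted p = 0.00083), a 1.59-fold rise.

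Srxn1 (chr2:151947436-151957687) encodes sulfiredoxin, which repairs peroxiredoxins that peroxide has over-oxidised. It was at 11.004, 14.3, 14.4 and 11.4 CPM in Hmox2+/+ heart and at 21.0, 25.0 and 21.2 CPM in Hmox2-/- heart, without overlap. The log2 fold change of Srxn1 was 0.79 (SE 0.13, 95% interval 0.52 to 1.07, adjusted p = 0.0015), a 1.74-fold rise. Leaving out the shallow wild-type heart library gave 0.74 for Srxn1, 0.64 for Prdx1 and -0.70 for Gsr, each still past the threshold.

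In ECs, Srxn1 was at 30.2, 37.9 and 25.8 CPM in Hmox2+/+ and at 35.8, 31.2 and 27.9 CPM in Hmox2-/-, and the values were interleaved. Its EC log2 fold change was 0.02 (95% interval -0.37 to 0.41). Prdx1 was at 351, 399 and 315 CPM in Hmox2+/+ ECs and at 437, 419 and 355 CPM in Hmox2-/- ECs, overlapping, with a log2 fold change of 0.19 (95% interval -0.18 to 0.55).

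Txnrd1 (chr10:82669785-82733546) encodes the cytosolic thioredoxin reductase, which regenerates the thioredoxin that peroxiredoxins consume. It was at 72.5, 70.1 and 54.4 CPM in Hmox2+/+ ECs and at 60.2, 50.2 and 50.2 CPM in Hmox2-/- ECs, and the log2 fold change, -0.30 with an SE of 0.15, did not pass (adjusted p = 0.188). In heart Txnrd1 was at 42.8, 39.9, 37.9 and 39.6 CPM in Hmox2+/+ and at 33.7, 47.1 and 48.4 CPM in Hmox2-/-. Replicate 1 of Hmox2-/- heart lay below all wild-type hearts and the other two lay above them, and the log2 fold change was 0.11 (95% interval -0.17 to 0.39).

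Nqo1 (chr8:108113835-108129934) encodes the quinone reductase that is widely used as a readout of NRF2 activity. It was at 9.45, 9.36 and 10.8 CPM in Hmox2+/+ ECs and at 14.5, 10.995 and 10.4 CPM in Hmox2-/- ECs (log2 fold change 0.28, SE 0.17, adjusted p = 0.278). In heart Nqo1 was at 49.8, 43.9, 57.0 and 50.9 CPM in Hmox2+/+ and at 45.8, 42.9 and 39.3 CPM in Hmox2-/-, and the genotypes overlapped. Its heart log2 fold change was -0.24 (SE 0.11, 95% interval -0.48 to -0.0028, adjusted p = 0.108), and it passed with the length and GC offset (-0.34, adjusted p = 0.00705).

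**Figure D2:**
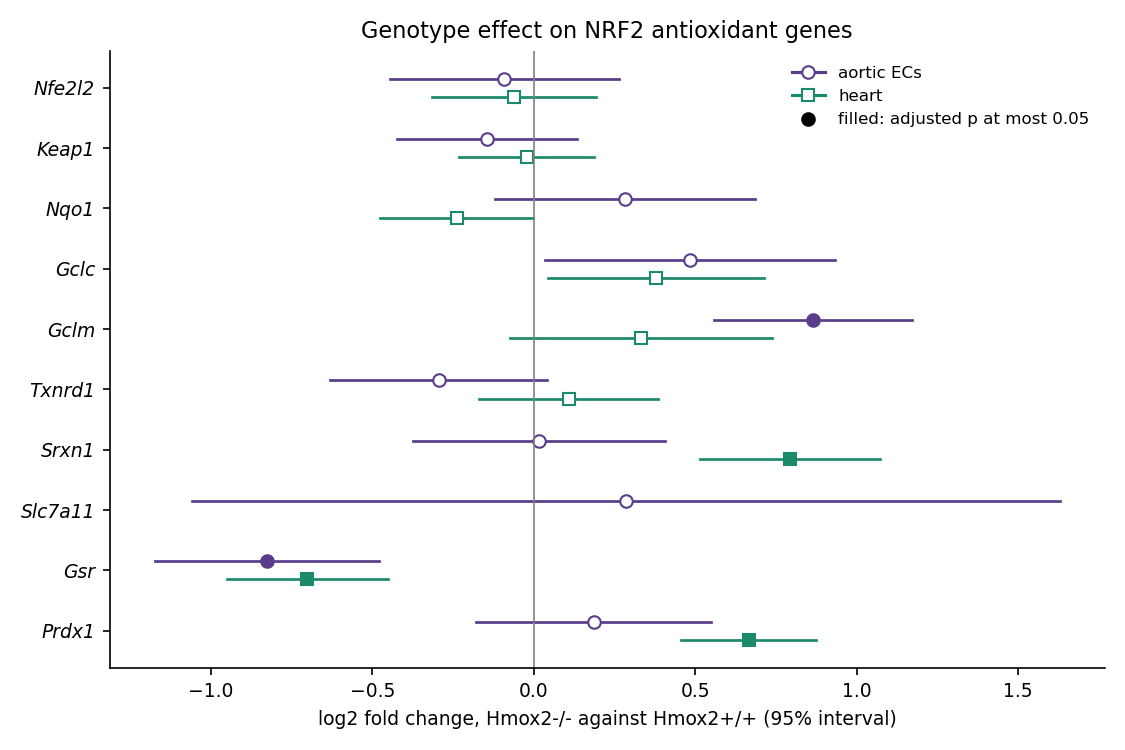
Log2 fold change of each gene in Hmox2-/- against Hmox2+/+ (x axis) with its 95% interval, in ECs (circles) and heart (squares); filled symbols have an adjusted p of at most 0.05. Gsr is below 0 in both tissues, Gclm is filled in ECs only, and Srxn1 and Prdx1 are filled in heart only. Slc7a11 has no heart symbol because it was not tested there.

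The genotype effects of the tissues were compared in a single fit of all 13 libraries, in which 16.2% of 15911 genes had a higher effect in heart than in ECs and 12.7% a lower one. Among the 10 genes, 2 were called higher and 0 lower. Srxn1 differed by 0.82 on the log2 scale (SE 0.22, 95% interval 0.35 to 1.29, adjusted p = 0.0131) and Prdx1 by 0.52 (SE 0.18, 95% interval 0.14 to 0.90, adjusted p = 0.0407). The difference for Prdx1 passed in 8 of 22 alternative analyses, with adjusted p-values from 0.00753 to 0.286, and that for Srxn1 in 21 of 22. The setting in which Srxn1 did not pass was the one without Hmox2-/- EC replicates 2 and 3, and Prdx1 did not pass there either. That setting leaves a single Hmox2-/- EC library. Gclm, called in ECs and not in heart, had a difference of -0.49 that did not pass (95% interval -1.04 to 0.06, adjusted p = 0.167). Nqo1 had a difference of -0.48 (adjusted p = 0.0637).

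The levels per transcript length, in TPM, gave Prdx1 as the highest and Slc7a11 as the lowest of the 10 genes in all 4 groups. In Hmox2+/+ ECs, Prdx1 at 341 ± 63 TPM was followed by Nfe2l2 at 53.4 ± 15.4 TPM, then by Txnrd1 (23.0), Gsr (20.3), Keap1 (16.7) and Srxn1 (14.2), in which each neighbour overlapped the next. Gclc (8.39), Nqo1 (7.66) and Gclm (7.48) formed a lower block that did not separate, and Slc7a11 was at 0.57 ± 0.40 TPM. In Hmox2+/+ heart the order began with Prdx1 at 165 ± 10 TPM, Nqo1 at 33.3 ± 0.9 TPM and Nfe2l2 at 22.1 ± 0.9 TPM, and the libraries of these 3 did not overlap. Gclm (3.38) and Gclc (2.83) did not separate near the lower end, and Slc7a11 was at 0.031 ± 0.029 TPM.

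In Hmox2-/- ECs, Gsr stood in the eighth place at 10.2 ± 2.5 TPM, overlapping Gclm above it and Nqo1 below it, where in wild-type ECs it had stood in the fourth. In Hmox2-/- heart, Srxn1 at 10.3 ± 1.1 TPM stood above Gsr at 8.14 ± 2.39 TPM, the reverse of the wild-type order, and their libraries overlapped. Prdx1 in Hmox2-/- heart was at 318 ± 12 TPM. On the TPM scale 6 of the 9 genes tested in heart did not overlap between genotypes, beside 41.6% of all genes tested there, and 1 of 10 did not overlap in ECs, beside 30.5%. TPM in heart moves with the mitochondrial share given above, and in CPM the counts were 3 and 2.

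Between the wild-type tissues, 32.2% of all genes were called higher in heart and 33.8% lower, and 3 of the 10 genes were called in each direction. Nqo1 was 8.58-fold higher in heart than in ECs (log2 3.10, SE 0.14, adjusted p = 1.5e-10), the largest rise of the 10. Keap1 was 0.73 and Gclm 0.50 higher on the log2 scale in this fit. The mean TPM of Keap1 and of Gclm was nevertheless lower in heart (13.6 against 16.7, and 3.38 against 7.48), and the difference of Gclm was -0.07 with length-scaled TPM. Other genes also read lower in heart by TPM than in the fit. Nqo1 was at 33.3 TPM in heart against 7.66 in ECs, a smaller gap than in the fit. Prdx1 was at 165 against 341 TPM, with a log2 value of -0.15 in the fit. Slc7a11 was lower in heart by a log2 value of -3.55 (SE 0.68), Gclc by -0.56 and Srxn1 by -0.53, each past the threshold. The shares of mitochondrial counts (19.4% to 30.9% in ECs), the marker sums and the extraction kits also differed between the tissues, and their part in these values was not tested.

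Transcript-level estimates were compared as the share of a gene's counts given to its leading transcript, the one with the highest mean TPM over all libraries. With 3 libraries against 3 the exact two-sided permutation test cannot go below 0.1, and with 4 against 3 it cannot go below 0.0286. No share passed after adjustment over the genes and tissues tested. The lowest adjusted p was 0.267. In ECs, Txnrd1-201 took 75.3%, 56.6% and 49.6% of the Txnrd1 counts in Hmox2+/+ and 81.2%, 76.8% and 78.6% in Hmox2-/-, without overlap (exact p = 0.1). Keap1-205 took 39.1%, 48.4% and 51.8% of the Keap1 counts in Hmox2+/+ ECs and 53.8%, 57.2% and 61.2% in Hmox2-/- ECs (exact p = 0.1). In heart the shares of Txnrd1-201 and Keap1-205 overlapped between genotypes. Gclm-201 (78.9% to 80.0% against 81.5% to 86.2%) and Gsr-201 (93.0% to 99.744% against 99.745% to 100%) also did not overlap in ECs (exact p = 0.1 each). Prdx1-205 led by TPM, but Prdx1-204 held most Prdx1 counts, with 69.9% to 71.7% in Hmox2+/+ ECs and 77.3% to 79.8% in Hmox2-/- ECs. Prdx1-202 took 11.3% to 13.9% and 4.51% to 6.32% there. These 204 and 202 shares were not tested.

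Slc7a11-204, annotated as a retained intron, took 3.85%, 0.75% and 0% of the Slc7a11 counts in Hmox2+/+ ECs and 65.5%, 33.4% and 38.7% in Hmox2-/- ECs. Its leading place by mean TPM over all 13 libraries came from the Hmox2-/- ECs (mean 0.80 TPM, against 0.011 TPM in Hmox2+/+ ECs, where Slc7a11-201 led with 0.37 TPM). The EC share of Slc7a11-204 was among those tested (exact permutation p = 0.1, adjusted p = 0.267). Because the values compared also gave this transcript its leading place, no conclusion is drawn from that test. Gclc-201, Nfe2l2-201 and Srxn1-201 took at least 97.8% of their gene's counts in every library, and Nqo1 was listed with a single transcript. Division of reads among overlapping transcripts was estimated by the authors' quantifier, so these shares carry its uncertainty as well.

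**Figure D3:**
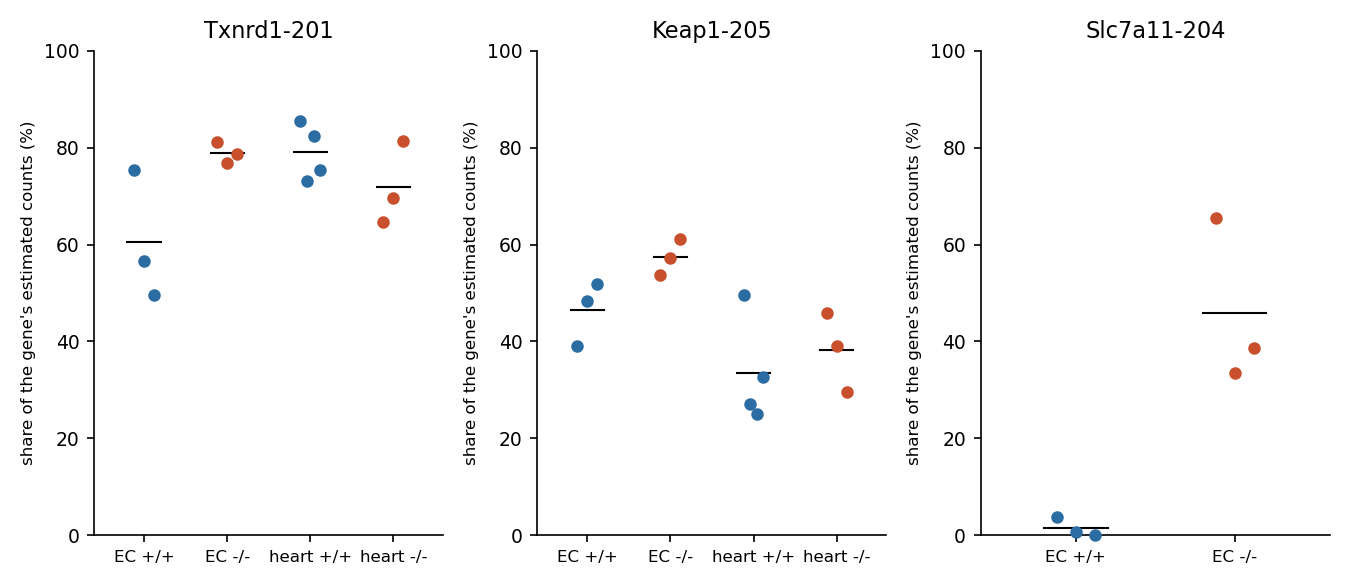
Share of the gene's estimated counts given to Txnrd1-201, Keap1-205 and Slc7a11-204 (y axis, %) in each library, with group means as black bars. The EC genotypes do not overlap in any of the 3 panels. The EC shares of Nfe2l2-201, Gclc-201, Srxn1-201 and Prdx1-205, which are not drawn, overlapped. How often the shares of other genes do not overlap was not counted. The heart is left out for Slc7a11, which had 0 to 10.4 counts there.

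Around these 10 genes, 107 further genes of the pathway were listed by role: regulators of NRF2, glutathione use, the thioredoxin system, NADPH supply, detoxification, and heme, iron and superoxide handling. In heart 58 of 99 tested were called higher and 9 lower, beside the background of 17.2% and 16.2%, with a median log2 fold change of 0.47. In ECs 7 of 103 were called higher and 13 lower, beside 10.02% and 8.06%, with a median of -0.21. The difference between tissues was called higher in heart for 50 of 103 and lower for 4. Of the 99 genes tested in both tissues, 52 had a positive value in heart and a negative one in ECs, and 5 the reverse.

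**Figure D4:**
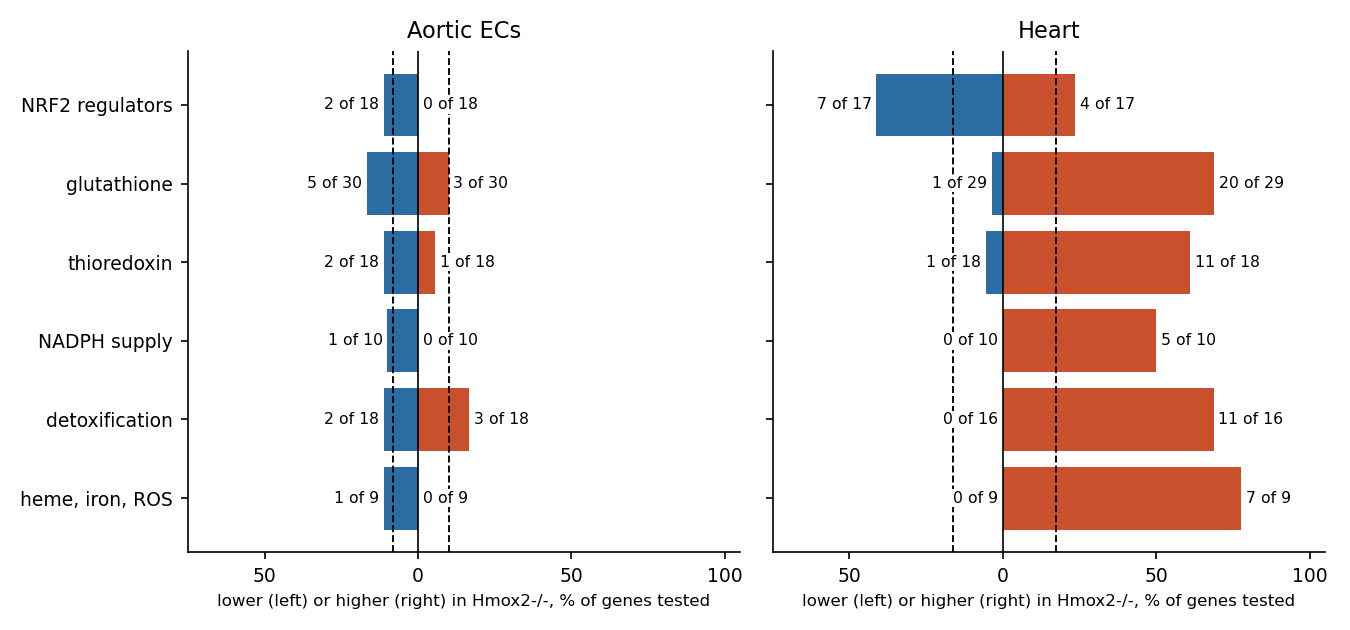
Share of the tested genes of each role called higher (right) or lower (left) in Hmox2-/-, with the counts printed at the bars, in ECs (left panel) and heart (right panel). Dashed lines mark the share of all tested genes called in that direction. Heart bars reach beyond the line to the right in all 6 lists, and only the regulators do so to the left.

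The heart changes were accompanied by other markers. The shares of all genes called higher and lower, to be read beside the counts here, were 17.2% and 16.2% in heart and 10.02% and 8.06% in ECs. All 5 tested erythroid markers were higher in Hmox2-/- heart, with a summed level of 341 to 779 TPM in Hmox2+/+ and 2416 to 3506 TPM in Hmox2-/-. Macrophage markers were called higher for 4 of 7 (81.6 to 119 TPM against 204 to 332 TPM). These heart sums also move with the mitochondrial share. Cardiomyocyte markers in heart were called higher for 3 and lower for 2 of 10, and endothelial markers for 3 and 1 of 12. Smooth muscle markers were called for 2 and 1 of 6, fibroblast markers for 1 and 2 of 7, and adipocyte markers for 1 and 0 of 4. In ECs, 9 of 10 cardiomyocyte markers were lower in Hmox2-/- (101 to 607 TPM against 5.56 to 9.51 TPM), as were 3 of 6 smooth muscle markers (1943 to 3129 TPM against 589 to 2236 TPM), while 4 of 7 macrophage and 3 of 7 fibroblast markers were higher. Of the endothelial markers in ECs 4 of 12 were higher and 1 lower, and of the adipocyte markers 0 of 6 were higher and 1 lower. The part of these cell types in the changes of the redox genes was not tested.

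Among the regulators, 4 of 17 tested were called higher and 7 lower in heart, and 0 and 2 of 18 in ECs. The largest rise in heart was that of Park7, which encodes a redox-sensitive protein that stabilises NRF2 (82.8 ± 2.6 CPM in Hmox2+/+ and 122 ± 25 CPM in Hmox2-/-, log2 fold change 0.56, adjusted p = 0.00769). With the length and GC offset the Park7 value was 0.12 and did not pass (adjusted p = 0.214). The largest fall was that of Bach2, which encodes a repressor that binds the same elements (5.86 ± 1.03 against 2.90 ± 1.12 CPM, log2 fold change -0.99, adjusted p = 0.0122). Bach2 did not pass with length-scaled TPM (-0.51, adjusted p = 0.370) or without Hmox2-/- heart replicate 2 (-0.92, adjusted p = 0.0525). In ECs Nfe2l3, a relative of Nfe2l2, fell from a low and uneven level (1.05 to 6.31 CPM in Hmox2+/+ against 0.33 to 0.50 CPM in Hmox2-/-, log2 fold change -2.84, adjusted p = 0.0319). The Nfe2l3 call was lost without wild-type EC replicate 1 (-1.80) and on leaving out each of the 3 Hmox2-/- EC libraries in turn (-2.96 to -2.67), with adjusted p-values from 0.0622 to 0.119.

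Glutathione genes were called higher for 20 of 29 and lower for 1 in heart, and higher for 3 and lower for 5 of 30 in ECs. Ggt7, of the gamma-glutamyltransferase family, had the largest rise in heart at a low level (0.52 ± 0.19 against 1.09 ± 0.37 CPM, log2 fold change 1.19, adjusted p = 0.0337). It passed in 10 of 16 alternatives, and not without Hmox2-/- replicate 1 (0.89, adjusted p = 0.153) or wild-type replicates 3 (0.99) or 4 (1.12). Abcc1, which exports glutathione conjugates, was the gene that fell (33.5 ± 2.5 against 23.9 ± 3.4 CPM, log2 fold change -0.49), and did not pass with the length and GC offset (-0.18, adjusted p = 0.107). In ECs, Ggct, which degrades gamma-glutamyl peptides, stood at 3.13 ± 0.62 CPM in Hmox2+/+ and 6.38 ± 1.29 CPM in Hmox2-/-, a rise of 1.03 on the log2 scale (adjusted p = 0.0337). Ggct passed in 9 of 16 alternatives. It was 0.27 with length-scaled TPM (adjusted p = 0.577), and between 0.90 and 1.20 with adjusted p-values from 0.0572 to 0.110 on leaving out each of the 3 Hmox2-/- libraries or wild-type replicate 1 or 3 in turn. Gsta3, a glutathione transferase, stood at 35.8 ± 19.8 against 7.54 ± 2.61 CPM in ECs, a change of -2.25 (adjusted p = 0.014), and rose in heart (log2 fold change 0.88, adjusted p = 0.00778). The EC call of Gsta3 was lost without Hmox2-/- EC replicate 2 (-2.20, adjusted p = 0.05001) or 3 (-2.03, adjusted p = 0.0657).

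Of the thioredoxin list, 11 of 18 were called higher and 1 lower in heart, and 1 higher and 2 lower in ECs. Prdx2, a peroxidase that is abundant in red cells, stood at 210 ± 5 CPM in Hmox2+/+ heart and 368 ± 55 CPM in Hmox2-/- heart, a log2 rise of 0.81 (adjusted p = 0.000515), and 0.52 with the length and GC offset, where it passed. Sesn3, a sestrin, fell in heart (27.8 ± 1.9 against 18.8 ± 4.1 CPM, log2 fold change -0.56), and this value was -0.0067 with the length and GC offset (adjusted p = 0.964). In ECs Prdx4, the peroxidase of the endoplasmic reticulum, rose (45.5 ± 10.02 against 73.5 ± 13.03 CPM, adjusted p = 0.0494), and Txnrd2, the mitochondrial thioredoxin reductase, fell (21.0 ± 5.1 against 11.9 ± 2.7 CPM, adjusted p = 0.0463). These EC calls were close to the threshold. Prdx4 passed in 9 of 16 alternatives and Txnrd2 in 7. On leaving out each of the 3 Hmox2-/- libraries or wild-type replicate 1 or 2 in turn, Prdx4 was 0.53 to 0.84 and Txnrd2 -1.01 to -0.65 on the log2 scale, and neither passed.

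NADPH genes were called higher for 5 of 10 in heart and lower for 1 of 10 in ECs. Pgls, of the oxidative pentose phosphate pathway, was called in opposite directions: it fell in ECs from 86.6 ± 13.04 to 49.6 ± 3.0 CPM (adjusted p = 0.0112) and rose in heart from 17.9 ± 3.2 to 32.8 ± 7.9 CPM (adjusted p = 0.00472). On the log2 scale the EC value of Pgls was -0.80, and it did not pass with the length and GC offset (-0.35, adjusted p = 0.113) or without Hmox2-/- EC replicate 3 (-0.74, adjusted p = 0.0598). Its heart value was 0.86, and 0.44 with that offset, where it passed. Detoxification genes were called higher for 11 of 16 in heart and for 3 of 18 in ECs, where 2 were lower. Aldh3a1, an aldehyde dehydrogenase, had the largest heart rise at a very low level (0 to 0.25 CPM in Hmox2+/+ and 0.50 to 0.76 CPM in Hmox2-/-), and did not pass without Hmox2-/- replicate 2 (log2 fold change 1.75, adjusted p = 0.0684). Adh7, an alcohol dehydrogenase, stood at 19.3 ± 5.8 against 179 ± 19 CPM in ECs, a log2 rise of 3.21 (adjusted p = 0.000609), and was too low in heart to be tested. Cyp2a5 fell in ECs from a level set largely by 1 library (1.03 to 31.6 CPM in Hmox2+/+ against 0.035 to 0.70 CPM in Hmox2-/-). The Cyp2a5 call was lost without wild-type replicate 2 and on leaving out each of the Hmox2-/- libraries in turn (log2 fold changes from -7.65 to -3.06, adjusted p-values from 0.0893 to 0.119).

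In the heme, iron and superoxide list, 7 of 9 genes were called higher and 0 lower in heart, and 0 higher and 1 lower in ECs. Hmox1, the inducible heme oxygenase and an NRF2 target, was at 2.53, 4.15, 4.49 and 3.9997 CPM in Hmox2+/+ heart and at 12.4, 25.1 and 10.02 CPM in Hmox2-/- heart, without overlap. Its heart log2 fold change was 1.998 (SE 0.29, adjusted p = 0.000893), larger than that of any of the 10 genes. In ECs Hmox1 was at 10.7, 17.3 and 18.4 CPM in Hmox2+/+ and at 25.2, 14.2 and 70.2 CPM in Hmox2-/-, where replicate 3 set the mean. The EC log2 fold change of Hmox1 was 1.24 (SE 0.54, adjusted p = 0.145), and 0.35 without that library. Sod1, the cytosolic superoxide dismutase, fell in ECs from 415 ± 78 to 266 ± 31 CPM (adjusted p = 0.0449) and rose in heart (log2 fold change 0.50, adjusted p = 0.00895). The EC call of Sod1 held in 6 of 16 alternatives, with values from -0.75 to -0.40 over all 16. It was lost on leaving out each of the 3 Hmox2-/- libraries or wild-type replicate 1 or 2 in turn. The heart value of Sod1 was 0.072 with the length and GC offset (adjusted p = 0.589).

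**Figure D5:**
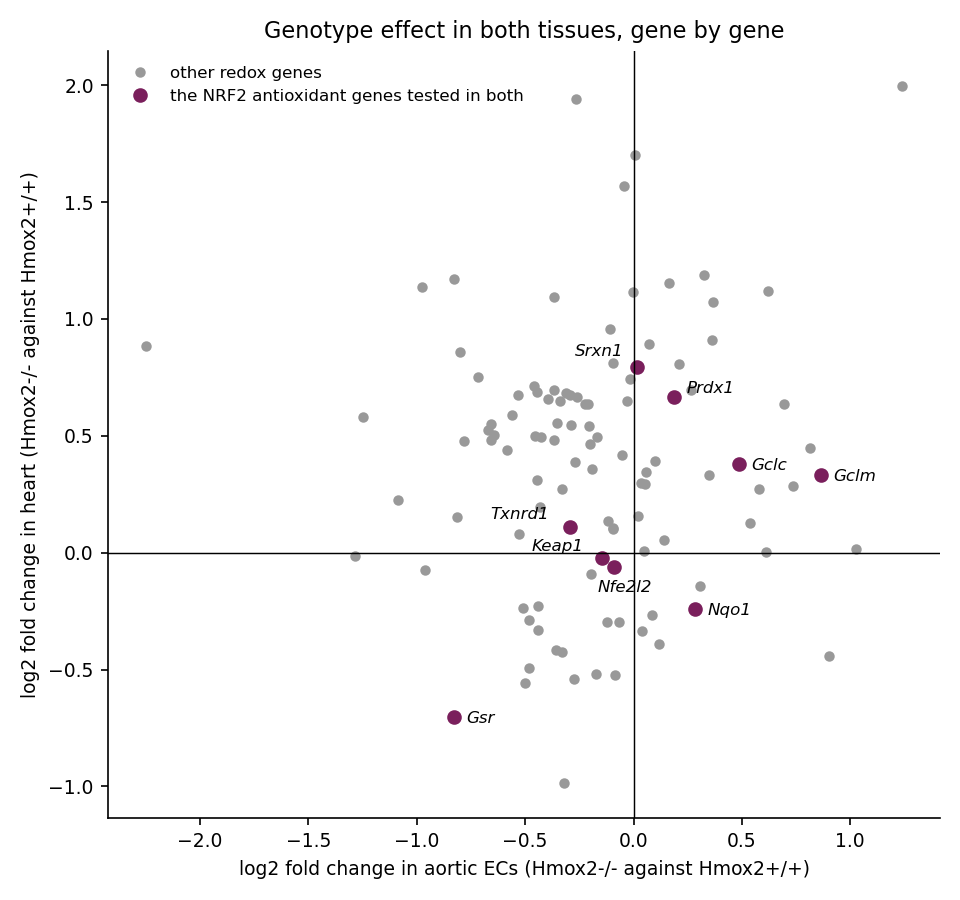
Log2 fold change in ECs (x axis) and in heart (y axis) of the 99 further redox genes tested in both tissues (grey) and of the 9 NRF2 antioxidant genes tested in both (purple, named). Most grey points lie above 0 in heart, and 52 of them lie to the left of 0 in ECs. Gsr lies in the lower left quadrant and Srxn1 and Prdx1 in the upper right.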

How the data were processed

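Poly(A)-selected, strand-specific RNA-seq libraries of aortic ECs and heart were quantified per transcript by the authors with kallisto 0.44.0, and the deposited files give estimated counts and TPM. The methods name the GENCODE mouse annotation on GRCm39, and the submitters' processing notes also list mm10 and a human build, which the mouse transcript identifiers do not match. Of 118489 transcripts, 115191 (97.2%) matched GENCODE M39 and were summed to genes. The 10 genes and the wider lists were chosen with earlier results of these data known.

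Estimated counts were rounded, filtered (edgeR 4.0.16 filterByExpr, minimum count 10), scaled by TMM and tested per tissue by the edgeR quasi-likelihood F-test in R 4.3.3 with Benjamini-Hochberg adjustment. Genes with an adjusted p of at most 0.05 were called. A fit of all 13 libraries gave the difference between tissues. Intervals and SE came from the same fits. Transcripts without a gene match held 0.75% to 1.01% of counts and were left out. On simulated counts with 200 changed genes at a log2 fold change of 2, the tests called 166 in ECs (15065 genes simulated), 187 in heart (13646) and 146 for the difference between tissues (15254), with 11, 12 and 8 unchanged genes called. That change was larger than any genotype value of the 10 genes, so these counts do not tell how often smaller changes are called. From each list, the called gene with the largest rise and the one with the largest fall were named per tissue, besides the 10 genes, Hmox2, Ddx3y and Hmox1. Alternatives were DESeq2 1.42.0, upper-quartile scaling, no filter, protein-coding genes alone, mitochondrial genes left out, length-scaled TPM, an offset for length and GC, a single fit of both tissues, a block for the replicate number, each library left out, and Hmox2-/- EC replicates 2 and 3 left out together. The 31-base word search used the GENCODE transcripts. Promoter sequences were those of RefSeq.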

Additional observations from a re-analysis of the deposited data

Results flagged for a closer look

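Among the genes named in the text, 11 had a genotype effect that differed between heart and ECs by the test of that difference (edgeR, adjusted over 15911 genes, log2 scale, heart minus EC). Of all genes tested for this difference, 16.2% were called higher in heart and 12.7% lower. Of the NRF2 antioxidant genes these were Srxn1 with 0.82 (0.02 in ECs and 0.79 in heart) and Prdx1 with 0.52 (0.19 in ECs and 0.67 in heart). The others had been named for the largest called rise or fall of a list in 1 tissue of these same data. That choice favours a difference between tissues, so their number is not a result. Gsta3 differed by 3.17, Pgls by 1.70 and Sod1 by 1.18, and each of these 3 was called lower in ECs and higher in heart. Aldh3a1 differed by 2.24, Txnrd2 by 1.01, Park7 by 0.95 and Prdx2 by 0.94. Ggct differed by -0.97 and Adh7 by -5.72, and Adh7 had a mean of 0.11 CPM in Hmox2+/+ heart and 0.020 CPM in Hmox2-/- heart. In the Hmox2+/+ heart group of 4, a single library far from the others was looked for in 21 genes and none was found.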

How the results depend on the processing

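Over 16 alternatives each, Srxn1, Prdx1 and Gsr kept their direction and their call in heart in all 16, Gclm kept its call in ECs in 15 and Gsr in ECs in 14. Leaving out 1 library at a time gave counts of 1 higher and 0 to 1 lower among the 10 genes in ECs, and of 2 to 4 higher and 1 lower in heart. The 0 came without Hmox2-/- EC replicate 3. Among the 107 further genes the same step gave 1 to 5 higher and 0 to 22 lower in ECs, where 7 and 13 were reported, and 43 to 60 higher and 4 to 13 lower in heart, where 58 and 9 were reported. The EC counts of further genes therefore rested on single libraries of either genotype, and so did the share called over all genes. The count of lower further genes was 0 without Hmox2-/- EC replicate 3 and 1 without replicate 2. Of all genes tested in ECs, 4.07% and 6.53% were called in either direction in these settings, beside 18.1% in the main fit. The count of the 10 genes called for the difference between tissues was 1 to 4 when libraries were left out in turn. Without Hmox2-/- EC replicates 2 and 3 a single Hmox2-/- EC library, assumed to vary like the others, remained. The EC log2 fold changes were then 1.00 for Gclm and -0.57 for Gsr. Gclm and Gsr lost their EC calls there, and Srxn1 and Prdx1 lost theirs for the difference between tissues. DESeq2 called 23 further genes lower in ECs and the fit of all libraries 32. With the length and GC offset 4 of the 10 genes were higher and 2 lower in heart, and 45 further genes were higher there. Without the filter 1 of the 10 genes was called for the difference between tissues. Causes of these shifts were not tested.

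Within each tissue, Hmox2+/+ and Hmox2-/- libraries with the same replicate number did not deviate together. Their correlations were 0.18, 0.04 and 0.09 in ECs and -0.03, 0.08 and 0.04 in heart. The numbers therefore do not pair the genotypes. The labels do not give which EC and heart libraries came from the same mouse. That pairing was not looked for, and the main fit of both tissues treated the libraries as independent. With the replicate number as a block the further genes lower in heart were 4 and those higher 41, the difference between tissues was called for 1 of the 10 genes, and Keap1 in heart was 0.025. The block ended the calls of Prdx1 for the difference between tissues, of Gclm between the wild-type tissues, and of Prdx4 and Sod1 in ECs and Ggt7, Sesn3 and Gsta3 in heart.

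The other changes of direction concerned values that had not passed, except for Gclm between wild-type tissues. With the length and GC offset, Keap1 was 0.058 in ECs and 0.015 in heart, Slc7a11 -0.25 and Prdx1 -0.054 in ECs. With that offset the difference between tissues was -0.030 for Keap1, 0.046 for Gclc, 0.072 for Gclm and 0.35 for Slc7a11, and heart against ECs in Hmox2+/+ was 0.034 for Gsr and 0.14 for Prdx1. With length-scaled TPM the difference between tissues was -0.014 for Nfe2l2, and heart against ECs was -0.073 for Gclm and 0.046 for Gsr. Upper-quartile scaling gave -0.029 for the difference of Nfe2l2 and -0.11 for heart against ECs of Txnrd1, which was -0.013 with DESeq2 and -0.0066 without mitochondrial genes. The fit of all libraries gave -0.021 for Srxn1 in ECs. Without Hmox2-/- EC replicates 2 and 3, Slc7a11 in ECs was -0.076 and the difference of Gsr -0.090. Leaving out single libraries, the ranges were -0.17 to 0.047 for Nfe2l2, -0.11 to 0.17 for Srxn1 and -0.16 to 0.98 for Slc7a11 in ECs, and -0.15 to 0.012 for Nfe2l2 and -0.074 to 0.021 for Keap1 in heart. For the difference between tissues they were -0.066 to 0.15 for Nfe2l2, -0.24 to 0.13 for Gclc and -1.25 to 0.34 for Slc7a11, and for heart against ECs -0.085 to 0.11 for Txnrd1. Depth limited Slc7a11 in heart, with at most 10.4 counts, and Gclc in the shallow wild-type heart, with 60 counts.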
